A study of Medicago ruthenica with 3 samples.

Results

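Ribosomal proteins and translation factors are the proteins that build the ribosome and drive it along an mRNA, and their transcripts were followed here in the degradome of Medicago ruthenica leaves, a drought-tolerant forage legume. The transcripts were chosen by words in the deposited annotation: every transcript annotated with ribosomal protein, translation initiation factor or elongation factor, whatever its reads. The rule took 139 of 6912 transcripts and 283 of 11390 entries, an entry being 1 small RNA listed with 1 transcript. Of these, 84 were ribosomal proteins, 35 were initiation factors and 12 were elongation factors of translation. The words also caught 8 transcription elongation factors such as SPT6, which act on RNA polymerase and not on the ribosome. Among the 35 initiation factors, 1 transcript annotated as initiation factor 2c has the symbol AGO4B, that of an Argonaute protein. It was kept in the sums of initiation and translation factors, with 1 CK, 0 DS and 3 RW reads.

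Leaves came from seedlings that were 4 weeks old at the start of treatment, grown 8 to a pot. Control plants (CK) were watered throughout and kept above 80% relative soil moisture, drought-stressed plants (DS) went 15 days without water until the soil was at 20%, and rewatered plants (RW) had the same 15 days of drought and were then saturated and sampled 2 days later. CK and DS leaves were taken on the same day, so RW leaves were also older. All plants came from the same seed source, with no transgene or mutation named, and each treatment was represented by 1 degradome library. The series describes replicate plants for each treatment, and whether their RNA was pooled into that library is not given in the sources used here. Every test below therefore compares 2 libraries and not 2 treatments, and no difference had a replicate check.

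A plant cell runs 3 sets of ribosomes. Cytosolic ribosomes have a 60S and a 40S subunit, while chloroplast and mitochondrial ribosomes are of bacterial type, with the large subunit of the chloroplast ribosome called 50S and the small one 30S. Translation begins when eIF2 brings the initiator tRNA and the eIF3 complex and eIF4 factors load the small subunit onto the mRNA, eIF5 triggers GTP hydrolysis by eIF2, and eIF5B joins the large subunit. Elongation factors then deliver each aminoacyl-tRNA and move the ribosome along. Most chloroplast ribosomal proteins are encoded in the nucleus, made in the cytosol and imported. Degradome sequencing reads the 5′ ends of uncapped mRNAs, and the deposited table keeps only ends listed at a predicted small RNA site. A read therefore marks an uncapped end at such a site. From these reads alone, a change cannot be told apart from a change in the level of that transcript. The paper also sequenced the transcriptome of the same treatments, and those levels are not given here. Nor in whole leaves can fewer cells of a type be told apart from less RNA per cell. The paper limited its list of targets by a score for mismatches to the small RNA, which left far fewer pairs. That limit was not applied to the 11390 entries used here, so a listing alone does not show that the small RNA made the cut.

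For 3 of the listed small RNAs the study designed an oligo that gives their letters. The first is shown because it is listed with the alpha subunit of eIF2, the subunit whose phosphorylation slows initiation under stress in many eukaryotes. The oligos are primers for quantitative PCR. A primer of this kind can carry added bases at its 5′ end, so no seed is marked.
lja-miR390a-3p primer: cgcgctatccatcctgagtttca
The eIF2 alpha transcript (At2g40290, TRINITY_DN25501_c0_g1) had 11 CK, 14 DS and 11 RW reads. Of these, 11, 10 and 11 reads were listed with lja-miR390a-3p, and the remaining 4 were all in DS and listed with mtr-miR2601_L+3R-1. The 3 libraries were close for this transcript, with a DS over CK ratio of 0.964 (95% interval 0.407 to 2.35).
Primers for the small RNAs listed with a pair of 60S proteins are shown for comparison.
PC-3p-54_81480 primer: ccgcgggatcggagattagagaat
lus-miR396b_R+1_1ss19CT primer: ccgcgttccacagctttcttgaatttt
The first was listed with RPL26B (TRINITY_DN15406_c0_g1) at 5 CK, 4 DS and 2 RW reads. The second was listed with RPL5B (TRINITY_DN19981_c0_g3) at 3 reads in CK, none in DS and 1 in RW. Both transcripts were too shallow for an order among the libraries to be read.

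In reads, the table was deepest for DS (32719), then RW (29617) and CK (24790). These whole reads were recovered from scaled values (RPM, reads per 1000000 listed), a single read being 40.3 RPM for CK, 30.6 for DS and 33.8 for RW. The 139 transcripts took 601, 804 and 837 of these reads, or 2.42% of CK, 2.46% of DS and 2.83% of RW. They were listed more evenly than the rest of the table. Reads were present in all 3 libraries for 68 of 139 transcripts (48.9%), against 26.3% of the other 6773. At least 10 reads over the 3 libraries were reached by 57 of 139 (41.0%), against 19.1% of the others, and the median was 5 reads against 3. At the deep end the order turned: the deepest of the 139 had 163 reads and the deepest other transcript 4866. Of the 46 transcripts listed in 1 library alone, 27 were in RW, 12 in DS and 7 in CK, all at few reads. Of the other 6773 transcripts, 3334 (49.2%) were listed in 1 library alone, 1351 in RW, 1165 in DS and 818 in CK, against 33.1% here.

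The reads were concentrated in few transcripts. The 10 deepest of the 139 held 987 of 2242 reads (44.0%). Chloroplast elongation factor Tu (tufA, TRINITY_DN23532_c1_g2), which delivers aminoacyl-tRNA to the chloroplast ribosome, led with 47 CK, 66 DS and 50 RW reads. RPL22B (TRINITY_DN15153_c0_g3), a 60S protein, followed with 45, 69 and 44 reads, and the cytosolic counterpart of tufA, an elongation factor 1-alpha (REFA1, TRINITY_DN26314_c0_g3), had 29, 37 and 29. All 3 were highest in DS by reads, but DS was also the deepest library, and their DS over CK ratios of RPM were 1.06 (0.721 to 1.58), 1.16 (0.787 to 1.73) and 0.967 (0.579 to 1.63). RPL22B was listed with gma-miR156b_L+1R-1 (27, 37 and 23 reads) and gma-miR156c (18, 32 and 21 reads), forms of 1 family. Their counts differed in each library. Without cleavage positions, whether any end was counted under both names could not be told.

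**Figure D1:**
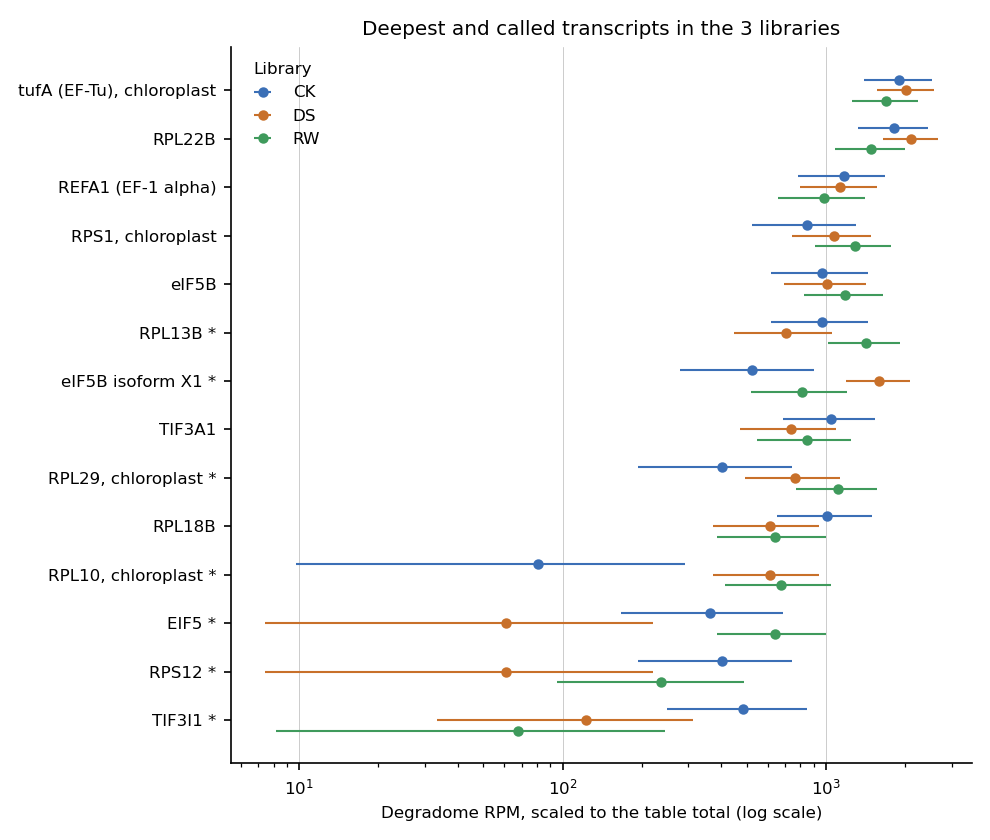
Degradome RPM (log scale) for the 14 transcripts that were among the 10 deepest or were called in at least 1 comparison (marked with a star); points are single libraries and lines are exact 95% Poisson intervals that cover counting error only. The intervals of the 3 libraries overlap for tufA, RPL22B and REFA1, while chloroplast RPL10 sits far lower in CK (2 reads) than in DS and RW (20 reads each).

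DS vs. CK set the library of droughted leaves against that of watered ones. Across the table, 928 transcripts had at least 10 reads over both libraries and entered the two-sided exact binomial test, whose p-values were adjusted by Benjamini-Hochberg over all of them, with a threshold of 0.05. Of these, 20.2% were called, 11% higher in DS and 9.16% lower. Of the 139 transcripts 41 were tested and 3 were called (7.32%): 2 were higher in DS, and 1 was lower. The share was below that of the table, and the difference in shares was not tested. The tested transcripts had a like median, 18 reads against 19 for the others, but a maximum of 114 reads against 2939. At an unadjusted exact p under 0.05 there were 4 higher and 3 lower, where 17.1% and 14% of all tested transcripts were. A change of at least 2-fold in either direction was seen for 12 of the 41, against 47.4% of the table.

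Of the calls for DS vs. CK, an initiation factor had the smallest p. An eIF5B isoform X1 (TRINITY_DN26432_c2_g1) had 13 CK, 52 DS and 24 RW reads. DS stood well above both other libraries: DS over CK was 3.03 (1.63 to 6.07; exact binomial test, adjusted p = 0.00144), and RW over DS was 0.510 (0.301 to 0.842; adjusted p = 0.0343 by the same exact test). This was the only one of the 139 called both up in DS and down again in RW. The higher value in DS was not called when the largest entry of each transcript alone was counted (2.86, exact test, adjusted p = 0.0679), and the lower one in RW was not called when libraries were scaled to their mapped reads (adjusted p = 0.0574). A second eIF5B transcript (TRINITY_DN25225_c0_g1), deeper in CK and RW, had 24, 33 and 35 reads and a DS over CK ratio of 1.04 (0.597 to 1.84).

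Chloroplast ribosomal protein L10 (RPL10, TRINITY_DN22116_c0_g2), part of the stalk of the 50S subunit that binds translation factors, had 2 reads in CK and 20 each in DS and RW. CK alone was low. The DS over CK ratio was 7.58 (1.84 to 66.9; exact test, adjusted p = 0.00719) and the RW over CK ratio was 8.37 (2.03 to 73.9; exact test, adjusted p = 0.00693). Most of these reads (1, 15 and 13) were listed with mtr-MIR2586a-p5_2ss4CT18AG. The call was made under each of the 3 other scalings and with each of the 2 other ways of counting entries, in both comparisons.

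RPS12 (TRINITY_DN24770_c0_g1), annotated as ribosomal protein S12C with no compartment, was the 1 transcript called lower in DS. It had 10 CK, 2 DS and 7 RW reads, a DS over CK ratio of 0.152 (0.0161 to 0.711; exact test, adjusted p = 0.0364). DS was lowest, and RW lay between. The call was lost with mapped-read scaling (exact test, adjusted p = 0.105), without scaling (0.113) and with the largest entry alone (0.137).

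RW vs. DS set the rewatered library against the droughted one. Here 1045 transcripts were tested and 18.4% were called, 9.95% higher in RW and 8.42% lower. Of the 139, 42 were tested and 3 called (7.14%), of which 2 were higher and 1, eIF5B isoform X1, was lower. The unadjusted exact test had 3 higher and 3 lower (16% and 15.2% over the table). At least 2-fold changes numbered 8 of 42, against 41.8%.

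The initiation factor eIF5 (EIF5, TRINITY_DN22531_c0_g1), which triggers GTP hydrolysis by eIF2 at the start codon, had 9 CK, 2 DS and 19 RW reads. DS was the low library, with an RW over DS ratio of 10.5 (2.53 to 92.9; exact test, adjusted p = 0.00108). For DS over CK the ratio was 0.168 (0.0177 to 0.813) and the exact test gave an adjusted p of 0.0576. For RW vs. DS, counting the largest entry alone left EIF5 with fewer than 10 reads, so it was not tested. EIF5 and eIF5B isoform X1, which act in succession at the end of initiation, differed in the place of DS. EIF5 was lowest in DS and isoform X1 highest, while both had a higher RPM in RW than in CK, a difference called for neither. The contrast was limited to isoform X1, as the other eIF5B transcripts together had 38 CK, 46 DS and 46 RW reads. Their DS over CK ratio was 0.917 (0.584 to 1.45).

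RPL13B (TRINITY_DN18479_c0_g2), a 60S protein listed with mtr-miR5213-5p alone, had 24 CK, 23 DS and 42 RW reads. RW was highest, at 2.02 times DS (1.19 to 3.51; exact test, adjusted p = 0.0369). The call was lost without scaling (exact test, adjusted p = 0.0990), with median-of-ratios scaling (0.0826) and with the largest entry alone (0.0730).

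RW vs. CK set the rewatered library against the control. Of 893 transcripts tested, 13.3% were called, 7.05% higher in RW and 6.27% lower. Of the 42 tested among the 139, 3 were called (7.14%): chloroplast RPL10 and chloroplast RPL29 were higher and TIF3I1 was lower. The unadjusted exact test gave the same numbers, 2 higher and 1 lower (13% and 11.1% over the table). At least 2-fold changes numbered 8 of 42, against 34%.

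Chloroplast ribosomal protein L29 (RPL29, TRINITY_DN15065_c0_g4), a protein of the 50S subunit, had 10 CK, 25 DS and 33 RW reads. CK was lowest and RW highest, and RW over CK was 2.76 (1.33 to 6.28; exact test, adjusted p = 0.0323). For DS over CK the ratio was 1.89 (0.879 to 4.42), which the exact test did not call (adjusted p = 0.238).

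TIF3I1 (TRINITY_DN17458_c0_g1), the I subunit of the eIF3 complex, had 12 CK, 4 DS and 2 RW reads. CK was highest, and RW over CK was 0.140 (0.0152 to 0.627; exact test, adjusted p = 0.0271). Both of its small RNAs were forms of miR394. The call was lost with mapped-read scaling (exact test, adjusted p = 0.0931) and without scaling (adjusted p = 0.0791).

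By class, the summed reads of the chloroplast ribosomal proteins were lowest in CK. The 15 chloroplast ribosomal proteins had 73 CK, 137 DS and 156 RW reads, rates of 0.294%, 0.419% and 0.527% of the table. CK was lowest, with a DS over CK ratio of 1.42 (1.06 to 1.92), an RW over DS ratio of 1.26 (0.994 to 1.59) and an RW over CK ratio of 1.79 (1.35 to 2.4). These intervals are exact and cover counting error only. Without the deepest of them, chloroplast ribosomal protein S1 (RPS1, TRINITY_DN18998_c0_g1, 21, 35 and 38 reads), DS over CK was 1.49 and RW over CK 1.90. Without RPL10 they were 1.25 (0.922 to 1.70) and 1.60 (1.19 to 2.17), so the DS over CK interval then included 1. Without both RPL10 and RPL29 they were 1.14 (0.818 to 1.61) and 1.41 (1.02 to 1.97).

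The 56 cytosolic ribosomal proteins had 192, 242 and 273 reads. Their ratios were 0.955 (0.787 to 1.16) for DS over CK, 1.25 (1.04 to 1.49) for RW over DS and 1.19 (0.986 to 1.44) for RW over CK. The RW over DS interval thus excluded 1. Without the deepest, RPL22B, the ratios were 0.892 (0.712 to 1.12), 1.46 (1.20 to 1.79) and 1.30 (1.06 to 1.62). Setting the cytosolic against the chloroplast ratio, a measure that no scaling of the libraries can move, gave 0.672 (0.470 to 0.957) for DS vs. CK, 0.991 (0.735 to 1.33) for RW vs. DS and 0.666 (0.469 to 0.940) for RW vs. CK. The cytosolic ratio was thus below the chloroplast one by more than counting error for DS vs. CK and RW vs. CK, and no difference was detectable for RW vs. DS. This pair was not among the planned comparisons, which set the cytosolic against all organellar ribosomal proteins. Both differences rested on RPL10, without which they were 0.765 (0.530 to 1.10) and 0.743 (0.519 to 1.06). The planned comparison added mitochondrial and other organelle-type proteins to the chloroplast ones (24 in all). Its values were 0.712 (0.508 to 0.997), 1.05 (0.784 to 1.40) and 0.746 (0.534 to 1.04), so the RW vs. CK interval included 1. When the largest entry of each transcript alone was counted, DS vs. CK was 0.730 (0.491 to 1.08), and without RPL10 it was 0.800 (0.566 to 1.13). Mitochondrial ribosomal proteins were too few to read, at 8, 6 and 7 reads over 6 transcripts, led by MRPL51 (TRINITY_DN18819_c0_g1) with 4, 2 and 4.

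**Figure D2:**
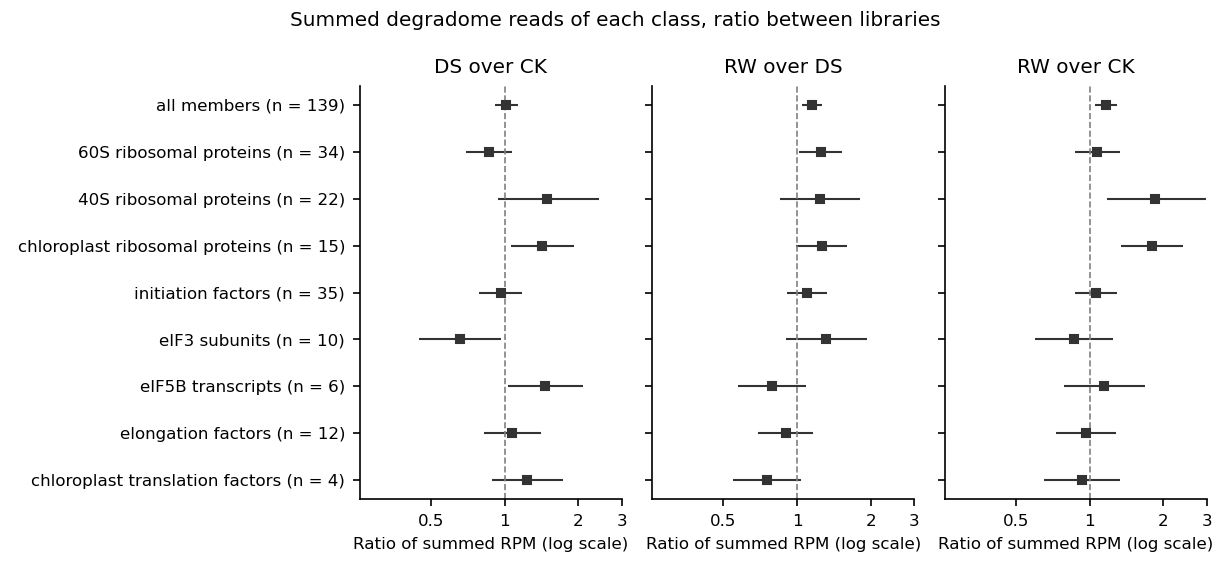
Ratio of summed RPM between libraries (log scale) for each class, with the number of transcripts and exact 95% intervals for counting error; the dashed line marks a ratio of 1. Chloroplast ribosomal proteins lie above 1 for DS over CK (1.42, with RPL10 included) and RW over CK (1.79), while elongation factors lie near 1 in each comparison.

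Within the chloroplast class the direction was shared by most, not all, of the deeper transcripts. Of the 8 with at least 10 reads over the 3 libraries, 6 had a log2 ratio above 0 for DS vs. CK and 6 for RW vs. CK. Over the table at that depth, 711 and 740 of 1351 transcripts were above 0, and the difference in shares was not tested. Chloroplast RPL5 (TRINITY_DN20843_c0_g1) had 13, 20 and 25 reads, and RPL6 (TRINITY_DN17127_c0_g1) had 3, 7 and 11, both lowest in CK. RPS6 (TRINITY_DN19221_c0_g4), a 30S protein, had 9, 8 and 7 reads, and RPL3 (TRINITY_DN16505_c0_g5) had 7, 4 and 5, both highest in CK. The median log2 ratio of the 8, with a pseudocount of 1 read, was 0.45 for DS vs. CK and 0.60 for RW vs. CK, beside 0.08 and 0.13 over the 1351 transcripts of the table at that depth. The 8 values were widely spread, from -1.08 to 2.41 for DS vs. CK and from -0.67 to 2.55 for RW vs. CK.

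The 4 chloroplast translation factors, tufA, IF2CP, typA and fusA2, had 62 CK, 101 DS and 69 RW reads, with ratios of 1.23 (0.891 to 1.72) for DS over CK, 0.755 (0.547 to 1.04) for RW over DS and 0.932 (0.651 to 1.33) for RW over CK. All 3 intervals included 1, and tufA alone held 70.3% of the reads. Chloroplast initiation factor IF-2 (IF2CP, TRINITY_DN25828_c0_g1), which positions the initiator tRNA on the 30S subunit, had 6, 20 and 7 reads and was called in none of the comparisons (exact test, adjusted p = 0.152 for DS vs. CK and 0.113 for RW vs. DS). Chloroplast ribosomal proteins against chloroplast factors gave a ratio of ratios of 1.15 (0.736 to 1.80) for DS vs. CK, 1.66 (1.12 to 2.49) for RW vs. DS and 1.92 (1.20 to 3.06) for RW vs. CK. This pair of classes was chosen after the values were seen.

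The cytosolic subunits were set against each other. The 34 proteins of the 60S subunit had ratios of 0.860 for DS over CK and 1.07 for RW over CK. The 22 proteins of the 40S subunit had 1.49 (0.936 to 2.42) and 1.85 (1.17 to 2.97), and the ratio of 40S to 60S ratios was 1.73 (1.03 to 2.95) for DS vs. CK and 1.72 (1.04 to 2.90) for RW vs. CK. The 40S sum rested on few reads, 150 over the 3 libraries, and this pair too was chosen after the values were seen. Its deepest transcript, RPS2D (TRINITY_DN22748_c0_g1), had 8, 13 and 21 reads and was not called. Without it the 40S ratio for RW over CK was 1.71 (0.995 to 3.04). Among 60S proteins RPL18B (TRINITY_DN12305_c0_g1) had 25, 20 and 19 reads and RPL19C (TRINITY_DN15087_c0_g1) 6, 10 and 10, so no single order of the libraries ran through the subunit.

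**Figure D3:**
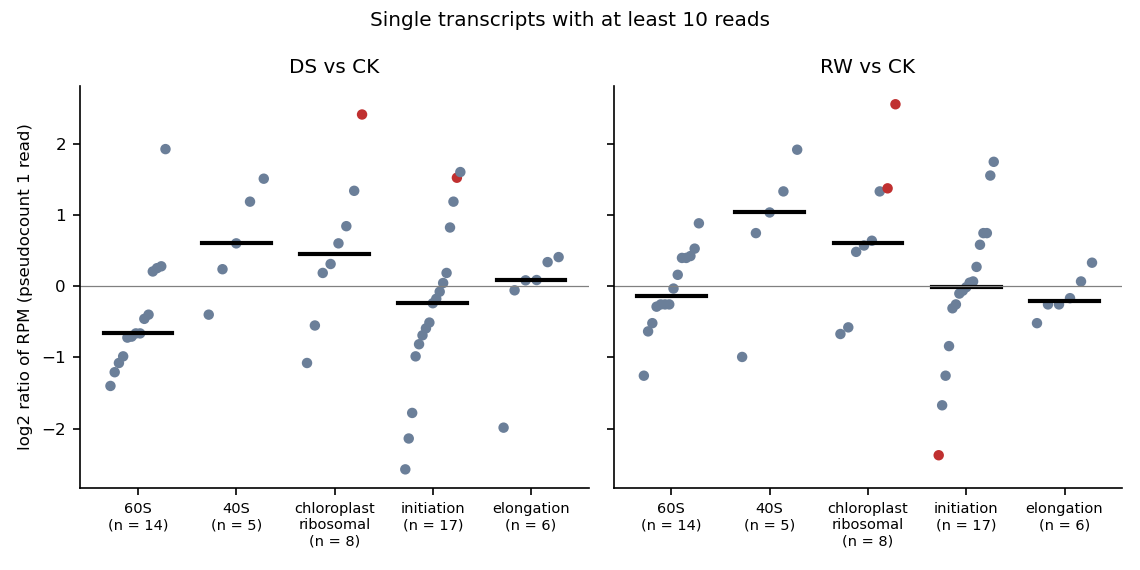
log2 ratio of RPM with a pseudocount of 1 read for single transcripts with at least 10 reads over the 3 libraries, by class, for DS vs. CK and RW vs. CK; black bars are class medians and red points are calls of the exact test. The median of the 60S proteins (14 transcripts at this depth) was -0.66 for DS vs. CK. That of the 40S proteins (5 transcripts) was 0.60, each with a wide scatter. The deepest transcripts weigh most in a summed ratio and count once in a median.

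Ribosomal proteins as a whole were set against the translation factors. The 84 ribosomal proteins had ratios of 1.04 for DS over CK, 1.25 (1.09 to 1.43) for RW over DS and 1.31 (1.12 to 1.52) for RW over CK, and the 47 translation factors had 1.0, 1.02 and 1.03. The ratio of the ratios was 1.04 (0.835 to 1.30) for DS vs. CK, 1.22 (0.995 to 1.50) for RW vs. DS and 1.27 (1.02 to 1.59) for RW vs. CK. Ribosomal proteins were thus higher relative to factors in RW than in CK by a margin just beyond counting error. The margin was inside counting error without chloroplast tufA (1.24, 0.982 to 1.56), with the largest entry of each transcript alone (1.22, 0.924 to 1.61) and, in an alternative added after seeing the data, without the entries of ppe-MIR169i-p5_2ss17GT19TG (1.10, 0.842 to 1.45), the small RNA listed with the most transcripts.

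The initiation factors were also summed by complex. The 10 subunits of eIF3, the scaffold that holds the 40S subunit and the mRNA, had 61 CK, 53 DS and 63 RW reads, a DS over CK ratio of 0.658 (0.447 to 0.967), or 0.628 (0.370 to 1.06) without the deepest, TIF3A1. The 6 eIF5B transcripts had 51, 98 and 70, a ratio of 1.46 (1.03 to 2.08), which rested on isoform X1. The other 5 had 38, 46 and 46 reads and a ratio of 0.917 (0.584 to 1.45). Set against eIF3, a pair chosen after the values were seen, eIF5B gave 2.20 (1.30 to 3.76) for DS vs. CK and 0.602 (0.363 to 0.996) for RW vs. DS, and without isoform X1 it gave 1.39 (0.761 to 2.55) and 0.842 (0.469 to 1.51). Within eIF3 the subunits were uneven: TIF3C1 (TRINITY_DN26244_c1_g1) had 11, 8 and 14 reads, the putative subunit FMT (TRINITY_DN25171_c0_g1) had 8, 1 and 5, and eif3g (TRINITY_DN22253_c0_g2) had 1, 7 and 6. The 4 subunits of eIF2B, the factor that reloads eIF2 with GTP, had 2, 6 and 11 reads, too few for an order. SUI1 (At4g27130, TRINITY_DN16218_c0_g2), which scans for the start codon, was level at 16, 18 and 20 reads, all listed with ath-miR8175_L-2_1ss12AG.

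Elongation factors differed little between libraries by their sum, with ratios of 1.07 for DS over CK, 0.898 for RW over DS and 0.965 for RW over CK. Their sum was mostly tufA and REFA1, and without tufA it came from 11 transcripts, of which LOS1 (TRINITY_DN16597_c0_g3), an elongation factor 2 that moves the ribosome by 1 codon, had 0, 4 and 1 reads. A transcript annotated as of the elongation factor Tu family (TRINITY_DN23995_c0_g1), with the symbol REFA1, had 7, 13 and 9. The mitochondrial factor Tu (TUFA, TRINITY_DN21492_c0_g2) had 4 reads, all in RW, and the interval of its RW over CK ratio ran from 0.553 upward and so included 1.

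A single small RNA, ppe-MIR169i-p5_2ss17GT19TG, named after a peach MIR169i hairpin, was listed with 64 of the 139 transcripts (46.0%, exact 95% interval 37.6 to 54.7%) and with 30.4% of the others. These listings carry no limit on the mismatch score, and the paper gives it far fewer targets under its limit. The 139 transcripts also had 2.04 entries each against 1.64 for the others, and whether this accounts for the difference was not tested. It carried 717 of 2242 reads (32.0%), against 18.0% in the rest of the table. The classes differed: it was listed with 33 of 56 cytosolic ribosomal proteins (58.9%) and 10 of 15 chloroplast ones (66.7%), but with 10 of 35 initiation factors (28.6%) and 3 of 12 elongation factors (25.0%). No other small RNA came near it, the next by reads being lja-MIR7539-p3_1ss8TA with 6 transcripts and 159 reads, mostly on tufA (27, 49 and 36).

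**Figure D4:**
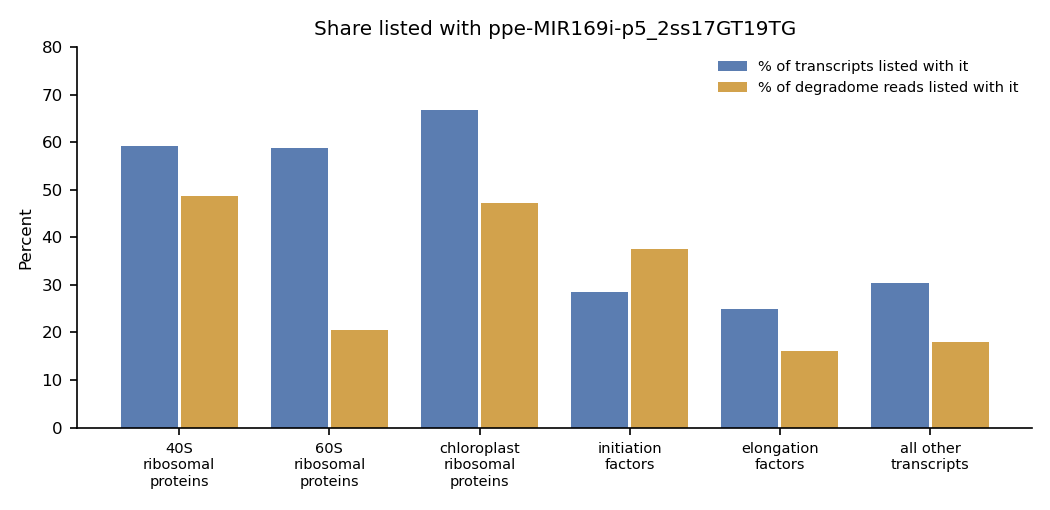
Percent of transcripts listed with ppe-MIR169i-p5_2ss17GT19TG and percent of degradome reads listed with it, by class and for all other transcripts of the table. About 59% of the 40S and 60S proteins were listed with it against 30.4% of other transcripts, while its part of the reads was 48.7% for 40S and 20.5% for 60S.

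A small RNA could be listed more than once on 1 transcript. Of the 251 pairs of a small RNA and 1 of the 139 transcripts, 19 were listed more than once (7.57%), 16 of them with ppe-MIR169i-p5_2ss17GT19TG, against 3.79% of 10524 pairs elsewhere. The second eIF5B transcript (TRINITY_DN25225_c0_g1) held it 7 times and TIF3A1 (TRINITY_DN24435_c1_g1), the largest subunit of eIF3, 5 times. The deposited table gives no cleavage position, so entries cannot be placed along a transcript.

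Entries on 1 transcript did not always move together. The level sum of TIF3A1, with 26 CK, 24 DS and 25 RW reads, was made of entries of the same small RNA with 14, 3 and 5 reads and with 2, 12 and 9 reads. Their DS over CK ratios were 0.162 (0.030 to 0.582) and 4.55 (1.01 to 41.8), in opposite directions. On eIF5B isoform X1 the 3 deepest entries agreed in order, with 6, 21 and 5 reads, 2, 11 and 8 reads, and 1, 12 and 2 reads, all highest in DS. On chloroplast RPL29, the rise was in the entry of ppe-MIR169i-p5_2ss17GT19TG (4, 17 and 28 reads) and not in that of mtr-miR2678_1ss2GA (6, 8 and 4). These entries were chosen after their values were seen.

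**Figure D5:**
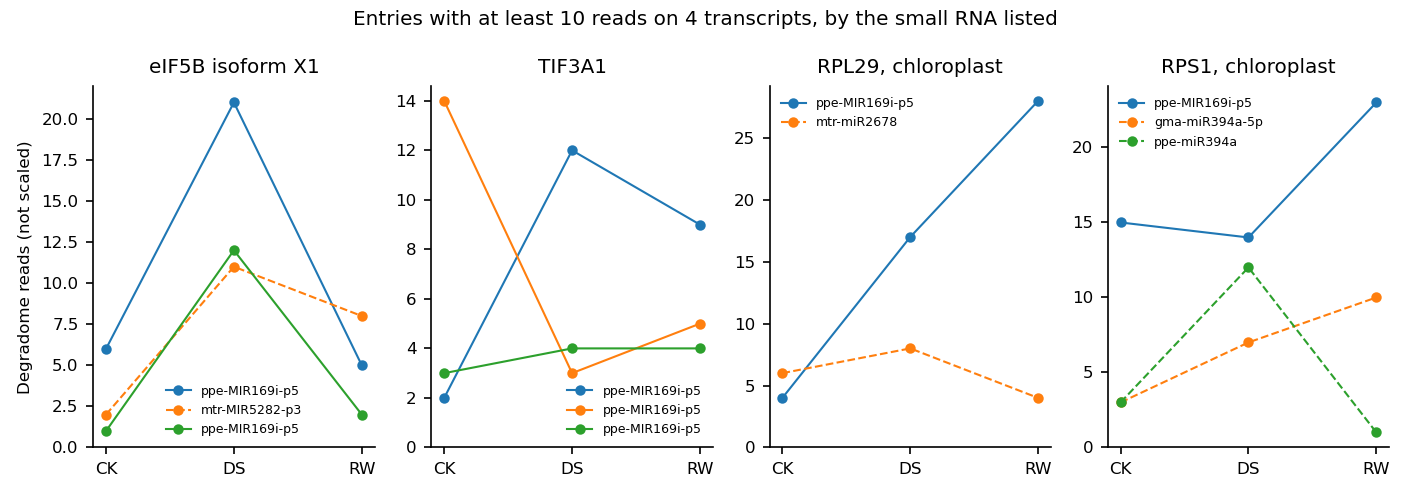
Degradome reads per library (not scaled) for entries with at least 10 reads on 4 transcripts; each line is 1 entry, solid for ppe-MIR169i-p5_2ss17GT19TG and dashed for other small RNAs. The entries of eIF5B isoform X1 all peak in DS, whereas those of TIF3A1 cross, one falling from 14 to 3 reads and another rising from 2 to 12 from CK to DS.

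Further annotation words found 94 other transcripts, of which 13 were transcription initiation factors, outside translation. Of the remaining 81, 12 were tested for DS vs. CK and 1 was called (exact test), where 20.2% of the table was, and 11 were tested for RW vs. CK and 1 was called, where 13.3% was. For RW vs. DS 15 were tested and the exact test called 0, where 18.4% of the table was called. The helicase eIF4A (TRINITY_DN21142_c1_g4), which unwinds mRNA for the 40S subunit and whose annotation lacks the word translation, had 1 CK, 13 DS and 7 RW reads, with DS over CK of 9.85 (1.48 to 419; exact test, adjusted p = 0.0336). A ribosome production factor 2 homolog (At3g23620, TRINITY_DN15082_c0_g1), which helps to make the 60S subunit, had 5, 17 and 26 reads, with RW over CK of 4.35 (1.64 to 14.5; exact test, adjusted p = 0.0125). Both were lowest in CK. The transcription initiation factors gave the other calls, TAF1 (TRINITY_DN26094_c0_g1) with 1, 19 and 6 reads, higher in DS than in CK, and TAF15 (TRINITY_DN18160_c0_g1) with 22, 12 and 31 reads, higher in RW than in DS. None of the 25 transcripts of aminoacyl-tRNA synthetases, which charge tRNAs, was called, with 3, 4 and 4 tested and the deepest, glutamate-tRNA ligase (At5g26707, TRINITY_DN19349_c0_g2), at 12, 15 and 12 reads.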

How the data were processed

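Leaf degradome libraries of CK, DS and RW, 1 each, were analysed. Per the methods, the authors processed reads with ACGT101-DEG, built on CleaveLand4, against their own assembled transcripts, and the genome build is not given in the sources used here. The authors deposited 1 table with a normalized RPM value per library for each small RNA and transcript. Each column sums to 1000000 over the table, so RPM was scaled to listed reads. All values above 0 (100%) were whole multiples of the smallest step within 0.025 read, and whole counts were recovered from the deposited RPM. No column was without a sample (0 unassigned).

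Reads were summed per transcript. Transcripts with at least 10 reads over 2 libraries were compared by an exact binomial test (two-sided, conditional on their summed reads, with the share given by the table totals), Benjamini-Hochberg adjusted over all of them, at a threshold of 0.05. It called 187 of 928 transcripts for DS vs. CK, 192 of 1045 for RW vs. DS and 119 of 893 for RW vs. CK. Ratios carry exact conditional 95% intervals, and class differences come from the 2 by 2 table of reads. Reads without molecular identifiers are not independent molecules, so intervals and p-values cover counting error only. A library at 0 was read as up to 3 reads. Classes and compartments came from annotation words. Named were all transcripts called in any comparison, the 10 deepest, the deepest of each class and compartment, and called genes of the wider pathway. Other transcripts are named to show how a class varied and were chosen after their values were seen. The transcripts, lists and classes were chosen with earlier results of these data known. Calculations used Python 3.11.15, NumPy 2.4.6, SciPy 1.17.1 and pandas 2.3.3. The test was checked only on simulated independent reads, so that check does not cover dependence among real reads or differences between replicates. A result for 1 transcript is not reported here.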

Additional observations from a re-analysis of the deposited data

How the results depend on the processing

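The interval of the summed ratio changed between excluding and including 1 in 6 of 24 repeats. Scaling cannot move a comparison of 2 classes. Of the repeats that could, the interval changed in this way in 2 of 15 for cytosolic against organellar ribosomal proteins and in 4 of 12 for ribosomal proteins against factors. Those not given above were the summed RW vs. DS ratio with the largest entry alone (1.09, 0.963 to 1.23) and ribosomal proteins against factors for RW vs. DS (1.33, 1.03 to 1.72), also with the largest entry. Scaling to mapped reads raised the median log2 ratio of all transcripts by 0.54 for DS vs. CK and 0.62 for RW vs. CK. It moved the calls to 7 (all higher) for DS vs. CK and 9 (all higher) for RW vs. CK, where 30.8% and 25.3% of all tested transcripts were called, and the summed ratio of the 139 transcripts from 1.01 to 1.47 and from 1.17 to 1.79. Without scaling the sums were 1.34 for DS vs. CK, 1.04 for RW vs. DS and 1.39 for RW vs. CK. The calls without scaling were 3 higher and 0 lower for DS vs. CK and 2 higher and 0 lower for RW vs. CK. Of all tested transcripts, 25.1% and 13.0% were then called. Median-of-ratios scaling gave 1.04 for RW vs. DS. A minimum of 5 reads left 1 call in each of RW vs. DS and RW vs. CK. Of all tested transcripts, 8.77% and 4.79% were called at that minimum. No minimum also left 1 call in each, where 1.92% and 0.889% of all tested transcripts were called. More transcripts entered the adjustment under both rules. The largest entry alone left 1 call for RW vs. DS, with fewer transcripts tested and 20.1% of them called across the table. Counting changes of at least 2-fold gave 12, 8 and 8 (47.4%, 41.8% and 34% of all tested transcripts). Leaving out RPL10, RPL29 or eIF5B isoform X1 was added after seeing the data. So was an alternative without the entries of ppe-MIR169i-p5_2ss17GT19TG, which gave 1.04 (0.927 to 1.18) for the summed RW vs. DS ratio. By the exact binomial test it left 1 call for DS vs. CK and 0 for RW vs. DS (3 at an unadjusted p under 0.05). Across the table, 21.8% and 18.7% of tested transcripts were then called. The other causes were not tested. No paired analysis was possible because each treatment had 1 library, and no library could be left out. At 10 to 20 reads the intervals of single transcripts span several-fold.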

Other observations

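The 8 transcription elongation factors that the annotation words also caught had 98 reads, 29 CK, 31 DS and 38 RW, over 32 entries. SPT6 (TRINITY_DN26393_c0_g1), which travels with RNA polymerase through nucleosomes, was the deepest with 12, 13 and 20 reads spread over 12 entries and 10 small RNAs. No call was made among them. Annotation words and symbols can disagree. A transcript annotated as 50S ribosomal protein L3P has the symbol RPL3B (TRINITY_DN21211_c0_g2; 0, 2 and 0 reads), a name used for cytosolic proteins, and was counted as organelle type here.

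The listing of miR394 forms was shared by proteins of different ribosomes. Both ppe-miR394a_L+3 and gma-miR394a-5p_L+1 were listed with TIF3I1 (7, 4 and 1 reads and 5, 0 and 1 reads) and with chloroplast RPS1 (3, 12 and 1 reads and 3, 7 and 10 reads). On RPS1 the first was highest in DS and the second in RW, although the names stand for forms of 1 miRNA. RPL5 of the 60S subunit (TRINITY_DN19981_c0_g1) had 1, 9 and 1 reads, a DS over CK ratio of 6.82 (0.945 to 299) that the exact binomial test did not call (adjusted p = 0.158).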
